A study of Daphnia magna with 30 samples.

Results

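DM12109P1 is an oligonucleotide probe that the study annotated as F-box/LRR-repeat protein 12 and listed among its circadian rhythm targets of the first of its trials in Daphnia magna, a planktonic crustacean. The probe was taken by its name, and it is 1 of the 14338 non-control probes on the array. It is the only probe with a name that starts with DM12109. The study selected it on its photoperiod p-value in these same 30 arrays, so its levels over the photoperiods are given below as a description with intervals, without a test of photoperiod. The name rests on the study's match of the transcript to known proteins, which array intensities cannot check.

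Transcript expression was measured in whole adult females of a single laboratory clone, any brood in the pouch included, at an age of 21 days. From hatching the animals were held at 25 °C under a day of 4L:20D (hours of light to hours of dark), under 8L:16D, under 12L:12D, under 20L:4D or under the 16L:8D control, in 1 light-proof box for each photoperiod. Each photoperiod had 3 exposure replicates, which were chambers loaded with 20 neonates each, and 2 single animals of each chamber (subsamples A and B) gave 1 array each, for 6 animals per photoperiod and 15 chambers in all. Animals were sampled within 1 h of lights on, so the dark phase just before sampling lasted 20, 16, 12, 8 or 4 h in order of increasing day length. Box and photoperiod cannot be told apart, and neither can photoperiod and the length of that dark phase. The animals of a photoperiod shared a box and each pair shared a chamber. P-values and intervals over animals thus measure the spread between animals of 1 clone. Intervals over chamber means measure the spread between chambers within a box.

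F-box proteins are the adaptor subunits of SCF ubiquitin ligases. The F-box binds Skp1, which joins the adaptor to a cullin scaffold, and a second domain such as leucine-rich repeats (LRR) binds the substrate that is to be ubiquitinated and degraded by the proteasome. In Drosophila the F-box/LRR protein Jetlag takes part in the light-induced degradation of Timeless. Period is a repressor of the clock loop in Drosophila. None of these roles has been taken as known for the transcript behind DM12109P1.

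The sequence of DM12109P1 was not used here. The study's list for its second trial, which was run on other animals, holds probe sequences for 3 circadian targets that are also on these arrays, and they are shown because these probes, chosen on other animals, are set beside DM12109P1 below. Any other circadian target of that trial was not analysed here. Each is 50 bases long, with a GC content of 50% for both Period circadian protein probes and 48% for the F-box/LRR-repeat protein probe. Written 5′ to 3′ as the list gives them, in lower case throughout, they read as follows.
DM09904P4 (Period circadian protein): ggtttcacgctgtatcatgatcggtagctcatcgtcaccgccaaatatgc
DM14516P3 (Period circadian protein): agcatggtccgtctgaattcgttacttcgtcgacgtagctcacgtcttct
DM09476P2 (F-box/LRR-repeat protein): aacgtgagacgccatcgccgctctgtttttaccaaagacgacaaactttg

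DM12109P1 was measured on every array. Its 1 spot per array was well above background on 30 of 30 arrays and was an outlier spot on 0 arrays. The processed signal lay between 84.5 and 221 intensity units with a median of 152, and the spot's median signal was 2.97 to 6.19 times the local background. The scanner software gave the spot an error of 10.1% to 10.5% of its signal, which is 0.15 on the log2 scale. Across arrays, the 75th percentile of the signal ranged over 359 to 643 units and the share of probes well above background over 70.1% to 89.9%, with a median of 81.4%. Levels are reported as log2 of the processed signal over that array's 75th percentile, so that array brightness is taken out.

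The levels of DM12109P1 overlapped under all 5 photoperiods. In 4L:20D the lowest, median and highest of the 6 animals were -1.87, -1.55 and -1.13, and the mean was -1.54 ± 0.24 (SD, n = 6), or 34.3% of the 75th percentile signal. In 8L:16D they were -2.03, -1.78 and -1.69, with a mean of -1.83 ± 0.14 (SD, n = 6), or 28.2%. The highest animal of 8L:16D lay below the median animal of 4L:20D. In 12L:12D the lowest, median and highest were -2.04, -1.78 and -1.65, with a mean of -1.81 ± 0.14 (SD, n = 6), or 28.5%. In 16L:8D they were -2.14, -1.90 and -1.64, with a mean of -1.88 ± 0.19 (SD, n = 6), or 27.2%. The ranges of 12L:12D and 16L:8D lay almost wholly over each other. In 20L:4D the values were -2.09, -1.70 and -1.44, with a mean of -1.72 ± 0.27 (SD, n = 6), or 30.3%. The widest spread stood at both ends of the day length series. The highest animal of all was subsample B of replicate 3 in 4L:20D, and the lowest was subsample B of replicate 3 in 16L:8D. These extremes lay 1.01 log2 units apart, a 2.02-fold difference between single animals.

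**Figure D1:**
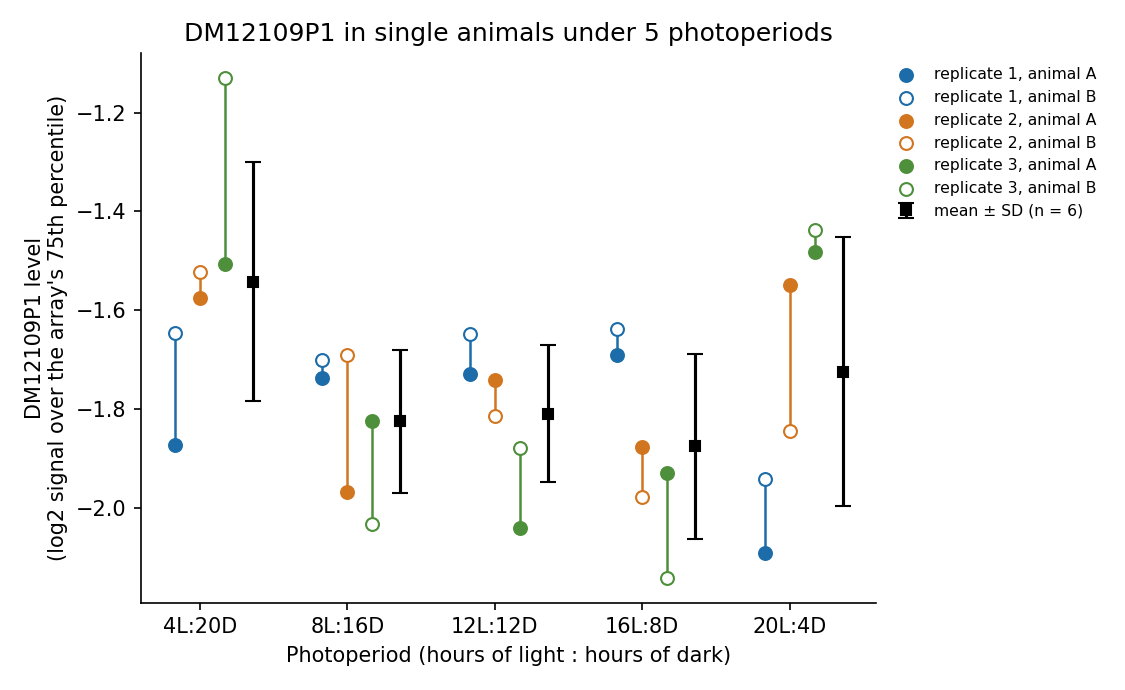
DM12109P1 level (log2 of signal over the array's 75th percentile) in each of 30 animals by photoperiod, with the 2 mates of a chamber joined by a line and the mean ± SD of 6 animals as a black square. All 5 photoperiods overlap, and the means lie between -1.88 in 16L:8D and -1.54 in 4L:20D.

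Ordered by mean level, the photoperiods ran first 4L:20D, then 20L:4D, next 12L:12D, then 8L:16D and last the 16L:8D control, which is not the order of day length. The whole range of the 5 means was 0.33 log2 units, or 1.26-fold, and differences between photoperiod means made up 28.4% of the variance over the 30 arrays. The mean of 4L:20D exceeded that of 20L:4D by 0.18, with a 95% interval of -0.11 to 0.47 from the limma fit over all probes. 20L:4D exceeded 12L:12D by 0.08 (-0.20 to 0.37), 12L:12D exceeded 8L:16D by 0.02 (-0.27 to 0.30), and 8L:16D exceeded 16L:8D by 0.05 (-0.24 to 0.34). None of these neighbours differed by more than the SD between animals of a photoperiod, which was 0.20. Along day length, 8L:16D lay 0.28 below 4L:20D, with an interval of -0.57 to 0.01 that lay wholly below 0 under 18 of 40 alternatives, among them slide as a fixed block (-0.62 to -0.04). All photoperiod intervals of DM12109P1 are a description, since photoperiod chose the probe, and whether 0 lies inside one is not read as a test.

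Set against the 16L:8D control, sizes of change are given first with intervals that take the 6 animals of a photoperiod as independent. In 4L:20D the level was higher by 0.33 (SE 0.14; 95% interval 0.05 to 0.62), a 1.26-fold difference with bounds of 1.03 and 1.54. All 6 animals of 4L:20D lay above the median animal of 16L:8D, and 4 of 6 lay above its highest animal. In 8L:16D the difference was 0.05 (-0.24 to 0.34), with an upper bound of 1.26-fold. In 12L:12D it was 0.07 (-0.22 to 0.35), with an upper bound of 1.28-fold. In 20L:4D it was 0.15 (-0.14 to 0.44), with an upper bound of 1.36-fold, and 3 of 6 animals lay above the highest animal of 16L:8D. The lower bounds were 0.85 of the control level in 8L:16D, 0.86 of it in 12L:12D and 0.91 of it in 20L:4D. Over animals, a rise of 1.5-fold was just inside the interval in 4L:20D. In each of the other 3 photoperiods a change of 1.5-fold in either direction was outside the interval. These intervals leave out the likeness of chamber mates and differences between slides. Over chamber means the upper bound in 4L:20D was 1.65-fold, and with slide as a fixed block that in 20L:4D was 1.57-fold.

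DM12109P1 was past 1.5-fold in 0 of the 4 comparisons. Over all 14336 probes tested, the share past 1.5-fold in either direction was 15.2% with 4L:20D, 19.3% with 8L:16D, 12.5% with 12L:12D and 10.8% with 20L:4D as the photoperiod set against the control. Since this contrast chose the probe, nothing is read from its place in those shares. With the intervals widened to cover the 4 comparisons together by Bonferroni, a choice made after the values had been seen, the interval in 4L:20D ran from 0.97-fold to 1.64-fold and the upper bounds were 1.35-fold in 8L:16D, 1.36-fold in 12L:12D and 1.44-fold in 20L:4D. The interval in 4L:20D then included no difference. Without the single highest animal the difference in 4L:20D was 0.25 (-0.01 to 0.51). Correcting the background with normexp brought it to 0.20 (0.02 to 0.37). Without replicate 3 of 4L:20D it was 0.22 (-0.09 to 0.53).

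**Figure D2:**
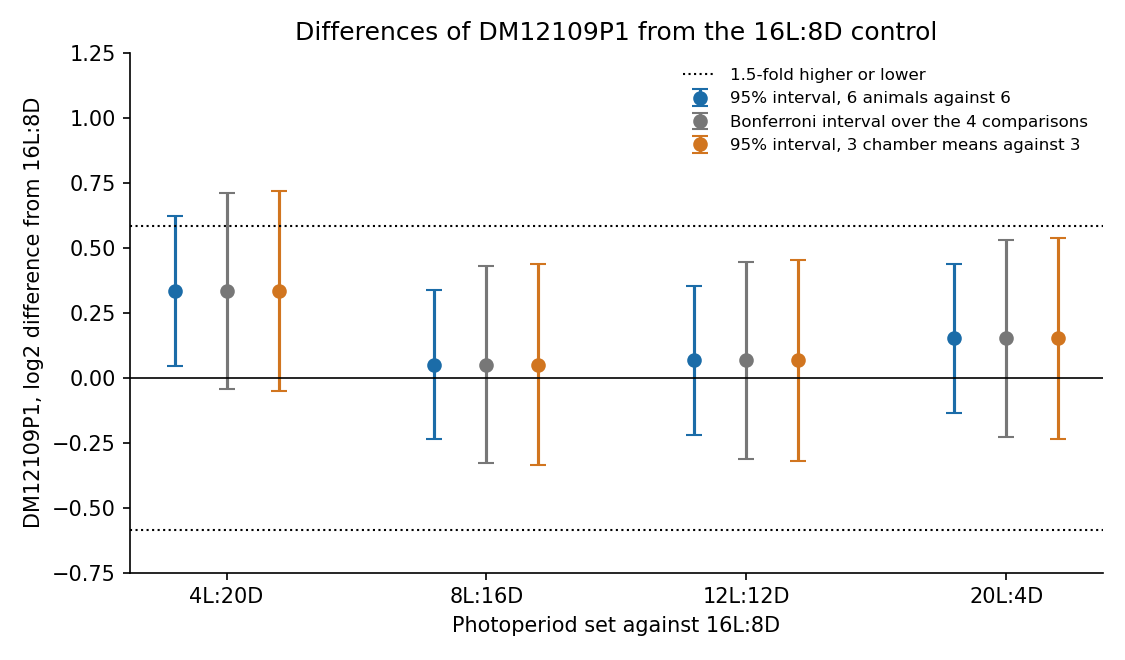
Log2 difference of DM12109P1 from the 16L:8D control in 4 photoperiods, with 3 intervals each: 95% over animals, Bonferroni over the 4 comparisons, and 95% over chamber means. The upper ends in 4L:20D reach 1.54-fold, 1.64-fold and 1.65-fold, and the intervals of the other 3 photoperiods lie inside the dotted lines at 1.5-fold higher or lower.

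The spread between animals was small for a transcript of this level. The pooled SD of animals around their photoperiod mean was 0.20 log2 units (25 residual degrees of freedom), which is 15.2% of the level. Of the other 14210 probes without a missing value, 4.08% had a smaller SD, and so had 3.80% of the 1000 probes nearest in mean value. The median SD was 0.47 over all probes and 0.39 over those 1000. The photoperiod p-value by which the study picked the probe falls as this SD falls, so a small SD is in part a property of the choice and no test is given. The SD between animals was 1.39 times the scanner software's error for the spot and 1.28 times the pooled SD of repeat spots of other probes in the same signal range, which was 0.16 over 325 probes. The median SD of those repeat spots was lower, at 0.065. DM12109P1 itself had no repeat spot, and how much of its spread between animals is measurement error was not tested.

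Mates of a chamber resembled each other. In 4L:20D the chamber means were -1.76, -1.55 and -1.32 for replicates 1, 2 and 3. In 20L:4D they were -2.02, -1.70 and -1.46, and in 16L:8D they were -1.66, -1.93 and -2.04. Replicate 3 was thus the highest chamber of 4L:20D and of 20L:4D but the lowest of 16L:8D, and it was also the lowest chamber under 8L:16D, at -1.93, and under 12L:12D, at -1.96. After subtraction of the photoperiod means, the intraclass correlation of mates was 0.49 over 15 chambers, and the exact permutation test over all 759375 regroupings of animals into chambers gave a two-sided p = 0.00145. The mean over the regroupings was -0.20, because subtracting a mean makes values within a photoperiod vary against each other. The labels of the chambers played no part in the choice of the probe. Of all probes, 0.640% had a higher intraclass correlation, and the median was -0.19. Both arrays of a chamber were on 1 slide for 1 chamber and on different slides for 14 chambers. With slide differences taken out the intraclass correlation was 0.31 (exact permutation p = 0.0505), and without the arrays of slide 5 it was 0.55 (exact permutation p = 0.0978, over fewer complete chambers). The part of slide in the likeness of mates was not tested beyond these values.

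With the chamber as the unit the intervals were wider. Over 3 chamber means per photoperiod, the SD of chamber means within photoperiods was 0.20, against 0.13 between mates within chambers. The 95% interval for 4L:20D against 16L:8D was then 0.96-fold to 1.65-fold and included no difference. The upper bounds were 1.35-fold for 8L:16D, 1.37-fold for 12L:12D and 1.45-fold for 20L:4D, and the lower bounds were 0.79, 0.80 and 0.85 in the same order. Fitted instead with chamber as a random block, which uses the correlation of mates shared by all probes of 0.013, the interval for 4L:20D was 0.07 to 0.60.

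The smallest difference between photoperiods that a two-sided test at 0.05 would find with a power of 80% was 0.34 log2 units, or 1.27-fold, for 6 animals against 6. For 3 chamber means against 3 it was 0.50, or 1.41-fold. Both values rest on the probe's own spread, which is small in part through the choice of the probe. The intervals over animals used limma's larger SD of 0.24. The value for 6 animals also takes mates of a chamber as independent.

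**Figure D3:**
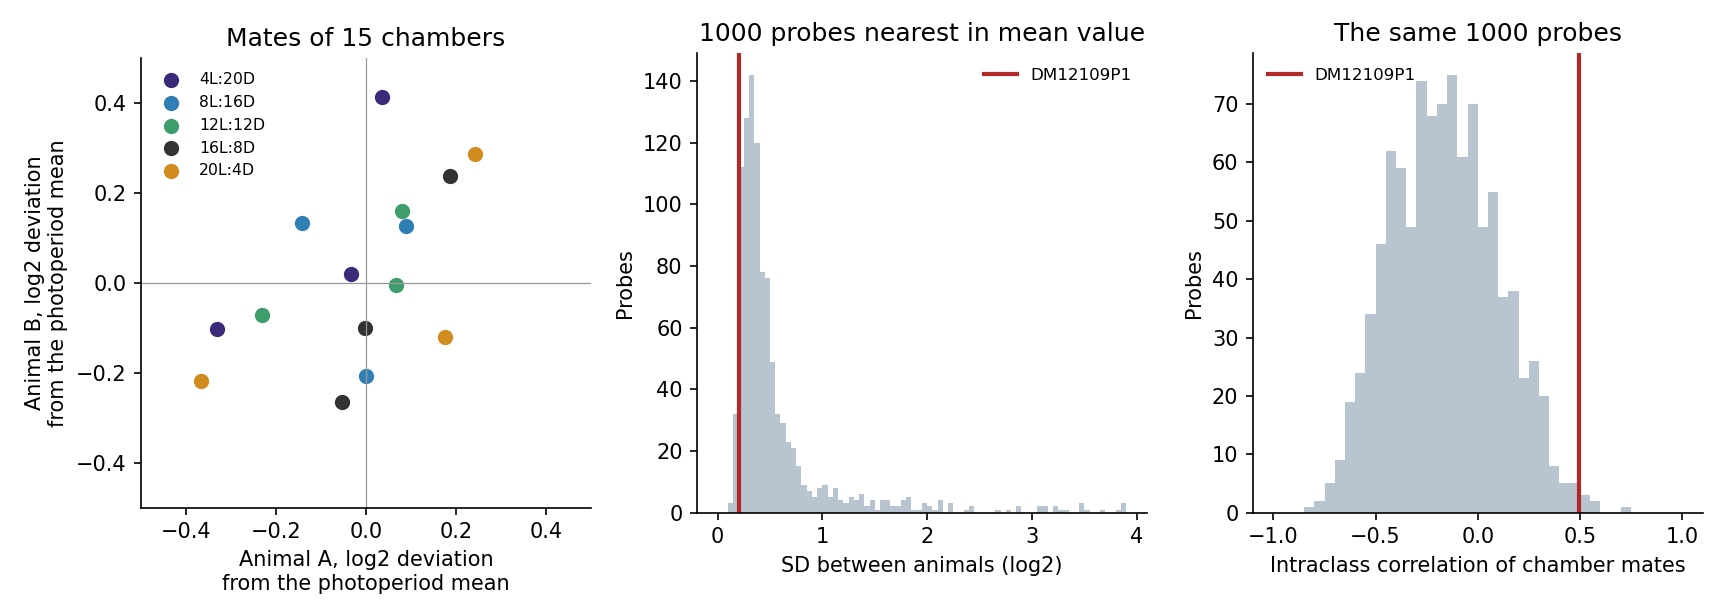
Left, deviation of animal B against animal A of each of 15 chambers from their photoperiod mean (log2). Middle and right, number of probes by SD between animals (log2) and by intraclass correlation of chamber mates for the 1000 probes nearest to DM12109P1 in mean value, with DM12109P1 as a red line at 0.20 and 0.49.

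No difference between the subsample letters was detected. The difference of A minus B within chambers averaged -0.04 ± 0.19 (SD, n = 15 chambers), A was higher in 5 of 15 chambers, and the exact sign-change permutation test gave a two-sided p = 0.444. Without regard to sign, mates differed by 0.04 to 0.38, with a median of 0.15. The largest gap was in replicate 3 of 4L:20D, where A was at -1.51 and B at -1.13.

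Slides held arrays of several photoperiods, which allowed differences within a slide. On slide 4 the array of 4L:20D stood at -1.13 and that of 16L:8D at -1.93, a difference of 0.80 that rests on the highest animal. On slide 5 the 2 arrays of 4L:20D averaged -1.58 and the 2 of 16L:8D averaged -1.78, a difference of 0.20. On slide 2 the arrays of 8L:16D and 12L:12D exceeded that of 16L:8D by 0.29 and 0.33, and on slide 4 those of 12L:12D exceeded it by 0.13. On slide 5 the array of 20L:4D differed from the mean of the 2 arrays of 16L:8D by -0.06. With slide as a fixed block over all arrays, 4L:20D exceeded 16L:8D by 0.42 (0.12 to 0.71) and 20L:4D exceeded it by 0.32 (-0.02 to 0.65), so that the upper bound in 20L:4D was 1.57-fold and past 1.5-fold. Without slide 6 that difference was 0.30 (0.04 to 0.56). Slide 9, with 3 arrays, was scanned on another day than the other 27, and without it 4L:20D exceeded 16L:8D by 0.34.

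Deviations of DM12109P1 from its photoperiod means were set against 7 other measures of the same arrays, and 0 of 7 relations passed. Against the array's 75th percentile Pearson's r was 0.17 (Spearman's rho 0.13) and against the share of probes well above background r was -0.15 (rho -0.20). Against vitellogenin (DM00375P2), the yolk precursor of reproducing females, r was -0.15 (rho -0.14). Against chitin deacetylase (DM03120P2), an enzyme that modifies chitin, r was 0.03 (rho -0.05). Against the 3 circadian probes above r was -0.22 for DM09904P4 (rho -0.10), -0.09 for DM14516P3 (rho -0.12) and 0.21 for DM09476P2 (rho 0.13). The lowest permutation p was 0.255 for r, with adjusted values from 0.668 to 0.882, and for rho the adjusted values ran from 0.753 to 0.827 (100000 permutations within photoperiods, 30 arrays). Without the 2 arrays farthest from the median of each measure, r lay between -0.37 and 0.33.

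Markers of egg production and of the cuticle were read on the same arrays beside DM12109P1. The study chose all 3 marker probes, for vitellogenin, chitin deacetylase and chitinase (DM13721P2), on these same arrays, so their levels are a description with no test. They were well above background on 30 of 30 arrays. In 4L:20D, where DM12109P1 had its highest mean, vitellogenin averaged 1.13 ± 0.40 against 1.88 ± 0.17 in 16L:8D, a difference of -0.75. Chitin deacetylase averaged 0.24 ± 0.59 in 4L:20D and -1.33 ± 0.63 in 16L:8D, a difference of 1.56, and chitinase averaged -3.71 ± 0.38 in 4L:20D animals and -3.61 ± 0.24 in control animals (SD, n = 6 each). In 8L:16D chitin deacetylase differed from 16L:8D by 1.68, vitellogenin by 0.24 and chitinase by 0.71, while DM12109P1 differed by 0.05. In whole animals fewer cells of a type and less RNA per cell cannot be told apart, and the part of yolk production and moult in the level of DM12109P1 was not tested beyond the relations above.

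The 3 circadian probes of the study's second trial that were analysed here carry a test of photoperiod here, since other animals chose them. None of the 3 passed the limma moderated F test of photoperiod after Benjamini-Hochberg adjustment over all probes, a threshold that 0.0698% of all probes passed, and 2 of 3 had an unadjusted p below 0.05, as did 11.3% of all probes. For DM09904P4, annotated as Period, the lowest, median and highest animals were -2.48, -1.64 and -0.96 under 4L:20D days, -2.09, -1.75 and -1.41 under 8L:16D days, -2.04, -1.91 and -1.48 under 12L:12D days, -2.01, -1.56 and -1.04 in the 16L:8D control, and -1.64, -1.20 and -0.45 under 20L:4D days. The animals of 20L:4D tended to the top but overlapped every other photoperiod. The difference of 20L:4D from 16L:8D was 0.42 (SE 0.21; adjusted p = 0.935), and the adjusted p of photoperiod was 0.421.

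DM14516P3, the other Period probe, was dim, and it cleared background on 5 of the 6 control arrays and on 6 of 6 under each other photoperiod. Its lowest, median and highest animals were -4.77, -4.63 and -3.94 under 4L:20D days, -4.68, -4.21 and -3.86 under 8L:16D days, -5.06, -4.63 and -4.16 under 12L:12D days, -6.13, -4.48 and -3.87 in the 16L:8D control, and -4.11, -4.02 and -3.44 under 20L:4D days. Again 20L:4D had the highest mean. Its animals lay above every animal of 12L:12D and overlapped the other photoperiods, and the value of -6.13 in 16L:8D was the array not well above background. 20L:4D differed from 16L:8D by 0.72 (SE 0.21; adjusted p = 0.935), and the adjusted p of photoperiod was 0.421. Without that array, an alternative chosen after seeing the data, the 5 other animals of 16L:8D averaged -4.34 ± 0.44 (SD, n = 5), and the mean of -3.91 in 20L:4D exceeded theirs by 0.42.

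DM09476P2, like DM12109P1 annotated as an F-box/LRR-repeat protein, had its highest medians on short days. Its lowest, median and highest were -0.54, 0.30 and 1.36 under 4L:20D days, -0.77, 0.07 and 0.90 under 8L:16D days, -1.26, -0.60 and 0.66 under 12L:12D days, -1.26, -0.28 and 0.35 in the 16L:8D control, and -0.83, -0.58 and 0.31 under 20L:4D days. All photoperiods overlapped. The differences from the control were 0.63 under 4L:20D, 0.42 under 8L:16D, -0.17 under 12L:12D and -0.14 under 20L:4D (SE 0.35 each), and the adjusted p of photoperiod was 0.527. Its standard errors were 2.53 times those of DM12109P1, so a change of 1.5-fold in at least 1 direction lay within each of the 4 intervals of DM09476P2.

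**Figure D4:**
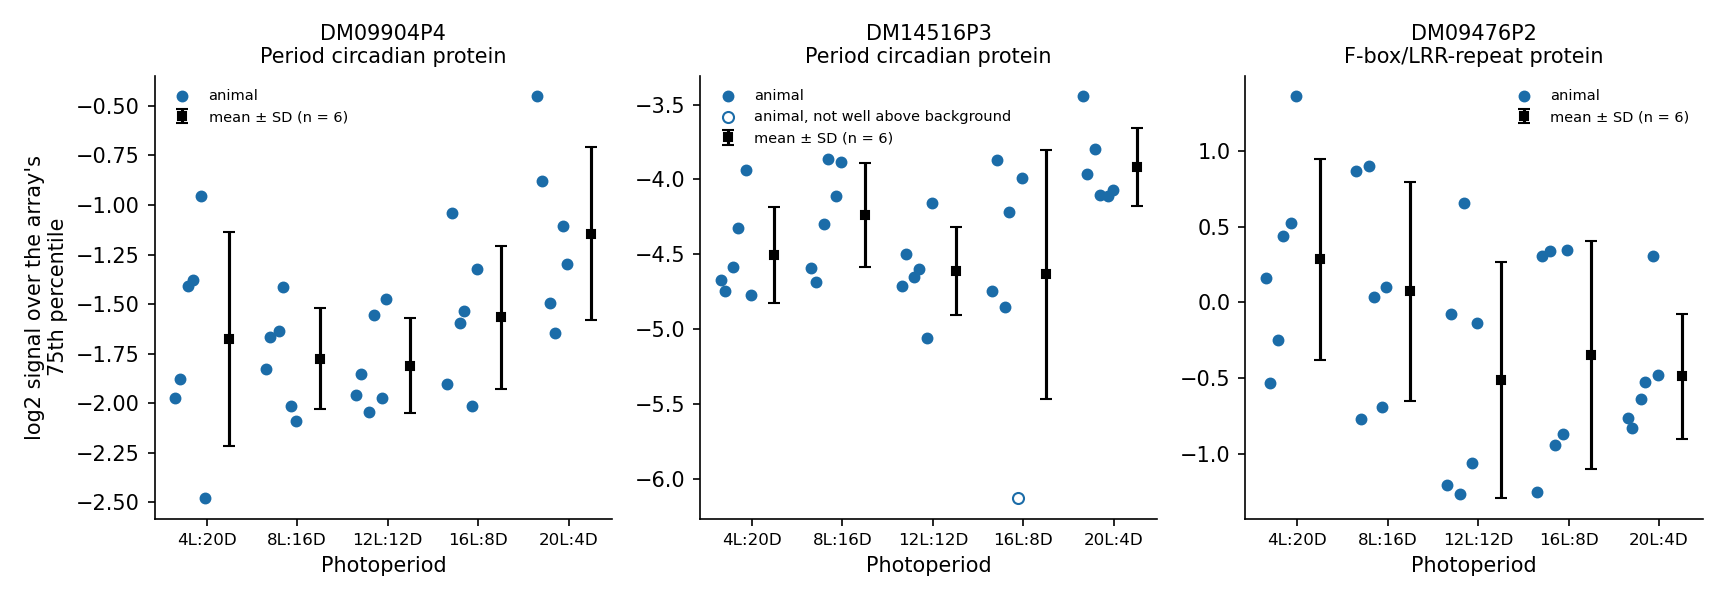
Levels (log2 of signal over the array's 75th percentile) of 3 circadian probes of the second trial in the 30 animals by photoperiod, each panel on its own scale, with the mean ± SD of 6 animals as a black square. The open circle in 16L:8D, at -6.13, is the 1 array on which DM14516P3 was not well above background.

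Ubiquitination and the proteasome were described with 23 probes, taken from the study's second-trial targets whose older or newer annotation was searched for ubiquitin, the proteasome, 26S protease, cullin, Skp1 or F-box. Subunits of the proteasome, which form the protease core and its regulatory cap, made up most of the list, 5 of the 23 by their older annotation alone. DM09476P2 was its only F-box member, 1 probe named a ubiquitin ligase, and 0 probes named a cullin or Skp1, the direct partners of an F-box protein. By limma's test 0 of 23 probes passed in any comparison with 16L:8D after adjustment, where 0.0558% of all probes passed with 4L:20D set against the control, 0.014% with 8L:16D, and 0% with 12L:12D or 20L:4D. At an unadjusted p below 0.05 there were 4 of the 23 probes for 4L:20D (8.84% of all probes), 3 probes for 8L:16D (14.2%), 1 probe for 12L:12D (5.92%) and 0 probes for 20L:4D (5.28%), and nothing is read from counts this small. The median log2 difference of the list was 0.34 in 4L:20D, with 20 of 23 probes above 0, beside a median of -0.05 over all probes tested. It was 0.29 in 8L:16D (20 of 23 above 0, all probes 0.02), 0.05 in 12L:12D (15 of 23, all probes -0.06) and 0.03 in 20L:4D (17 of 23, all probes -0.01). Some probes of the list share an annotation, such as 26S protease regulatory subunit 6B, so these are counts of probes and not of separate genes. The study, with the targets of both trials joined, described a tendency to lower expression in the proteasome pathway. In these arrays of the first trial the medians in 4L:20D and 8L:16D lay above 0. With slide as a fixed block the median of the list was 0.43 for 4L:20D animals, 0.12 under 8L:16D days, -0.02 under 12L:12D days and 0.27 under 20L:4D days, so that the medians of 8L:16D and 20L:4D changed order. The proteasome subunit beta type-3 probe DM02780P1 had the highest difference of the list in 4L:20D, at 0.64, and in 8L:16D, at 0.84 (adjusted p of photoperiod 0.421). DM12109P1 stood at 0.33 in 4L:20D, close to the median of the list, and at 0.05 in 8L:16D, below it. All 4 comparisons share the 16L:8D animals.

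**Figure D5:**
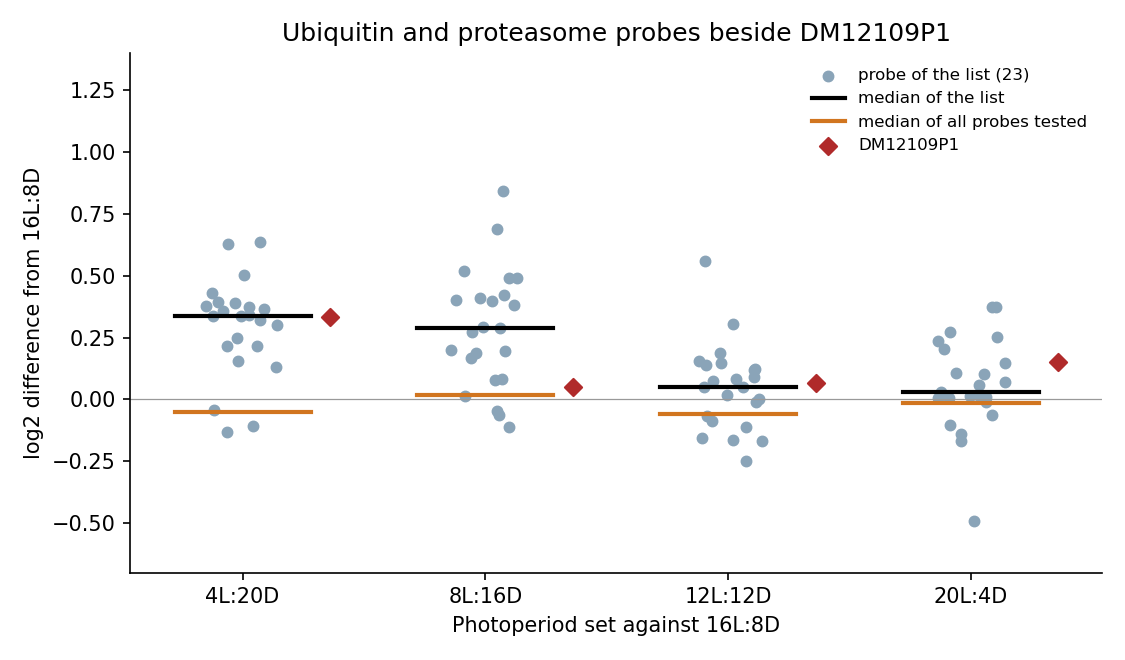
Log2 difference from 16L:8D of 23 ubiquitin and proteasome probes (points, spread sideways only to be seen), their median (black line), the median of all probes tested (orange line) and DM12109P1 (red diamond) in 4 photoperiods. In 4L:20D the list's median and DM12109P1 lie at 0.34 and 0.33, and in 8L:16D at 0.29 and 0.05.

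The probes most like DM12109P1 between animals were found by Pearson's correlation of deviations from the photoperiod means over the 30 arrays, among 8793 probes well above background on every array and without a missing value. The median r was 0.03, 7 probes exceeded 0.7, and 2 lay under -0.7. The 5 highest were DM03607P1 (r = 0.74), DM11656P3 (0.72), DM00066P1 (0.72), DM00827P2 (0.72) and DM09096P1 (0.70). The 3 lowest were DM08253P3 (-0.77), DM14510P2 (-0.75) and DM14925P2 (-0.68). These are the extremes of many comparisons on the same arrays, which share each array's scaling, and they are a description only. None of the 8 has an annotation in the lists used here. Over photoperiods, which the correlation did not use, DM11656P3 averaged 0.82 in 4L:20D and 0.29 in 16L:8D. DM00827P2 averaged 0.09 in 4L:20D animals and -0.41 in control animals, and DM14510P2 averaged -1.38 and -0.96. DM00066P1 also had its highest mean in 4L:20D, at 1.34. The others did not have their extreme there. DM03607P1 was highest in 8L:16D, at 0.25 against 0.21 in 4L:20D, and DM09096P1 in 20L:4D, at -1.61. DM08253P3 and DM14925P2 were lowest in 20L:4D, at -3.08 and -2.11.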

How the data were processed

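Total RNA (80 ng) of single animals was hybridised to 1-colour Agilent arrays. Per the file headers, Feature Extraction 10.7.3.1 (9.5.1 per the methods) made the deposited intensity values, background-subtracted processed signals, with flags. The deposited log2 values were scaled by the authors in GeneSpring to the 75th percentile and a median, and served as an alternative, differing by at most 0.028 for DM12109P1.

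Outlier spots (222, or 0.0487%) were set to missing, repeat spots averaged, and log2 signals set to each array's 75th percentile over non-control probes. The model of limma 3.58.1 (R 4.3.3) held photoperiod, subsample letter and their interaction over 14336 probes, with Benjamini-Hochberg adjustment. Residual degrees of freedom were 20, and 22.1 with moderation for DM12109P1. Exact and permutation tests used Python 3.11.15 and scipy 1.17.1. All were tested on simulated data. 30 arrays limit the precision. Named probes were DM12109P1, the 3 second-trial circadian probes, and the 5 highest and 3 lowest correlations, with 3 marker probes. Probes, lists and tests were chosen with earlier results of these data known. The second trial was not analysed here. Deviations in same-numbered chambers of different photoperiods had r of -0.67 to 0.42 over 30 pairs (median -0.02, 8 above 0.1). Pairs of different number had r of -0.58 to 0.74 over 60 pairs (median 0.01, 17 above 0.1). Numbers were not used to pair samples in the main fit, and whether they mark a pairing was not tested. Normexp used median signals with an offset of 50.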

Additional observations from a re-analysis of the deposited data

Results flagged for a closer look

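In 20 groups of 6 animals (4 probes in 5 photoperiods) 1 animal stood apart from the rest of its group, where chance gives about 1 in 20 groups. For DM09476P2, the F-box/LRR-repeat protein probe of the second trial, subsample A of replicate 3 in 20L:4D was at 0.31, and the other 5 animals averaged -0.65. Its gap to the next animal was 0.69 of the group's range, above the critical value of 0.625. The spot was well above background. For DM12109P1 0 of 5 groups held such an animal.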

How the results depend on the processing

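DM12109P1 had a higher mean in 4L:20D than its 16L:8D control under all 40 alternatives, by 0.20 to 0.44. The low end came with normexp, where the SD between animals was also lower (0.14 against 0.20). Since photoperiod chose the probe, the shared direction is no test. The 95% interval included 0 over chamber means, with only the 12 arrays compared, without replicate 2 or 3 of either photoperiod, without slide 2 or 4, and without the highest animal. Leaving out a chamber gave 0.22 to 0.44, and leaving out a slide 0.24 to 0.40. With the replicate block the difference stayed at 0.33 (0.06 to 0.61), and the interval of 8L:16D minus 4L:20D was -0.56 to -0.01, against -0.57 to 0.01 without it. That interval also lay below 0 with quantile normalisation (-0.64 to -0.02), median scaling (-0.70 to -0.06), normexp, slide as a block (-0.62 to -0.04) and chamber as a random block (-0.55 to -0.02), in 18 of 40 alternatives in all, and not over chamber means (-0.67 to 0.10). The sign of the difference from the control turned in 2 of 40 alternatives for 8L:16D, in 1 for 12L:12D and in 0 for 20L:4D, always within the intervals. Over all settings the highest upper bounds were 1.69-fold in 4L:20D, 1.39-fold in 8L:16D, 1.41-fold in 12L:12D and 1.57-fold in 20L:4D, the last with slide as a block. Without replicate 1 of 20L:4D the difference there was 0.30, with an interval that only just excluded 0 and an upper bound of 1.51-fold, and without slide 6 it was 0.30 (0.04 to 0.56). The range of the means was 0.20 with normexp and 0.43 with median scaling. With chamber differences taken out, the SD between mates within chambers was 0.13, which would give a detectable difference of 0.22. That value leaves out the spread between chambers, in which photoperiods differ, so it does not hold for photoperiods. Over chamber means the detectable difference was 0.50. The intraclass correlation of mates ran from 0.25 to 0.64 and lost its call with slide as a block (0.31) and without slide 5 (0.55). It was 0.35 to 0.56 without each chamber in turn. None of the 3 circadian and 23 ubiquitin probes, with DM09476P2 in both lists, passed under any setting that held them. At most 0.0698% of all probes passed these thresholds in the main fit, so nothing is read from this. DM14516P3 was not among the probes well above background on all arrays, and that setting left it out. Alternatives for mates, detectable difference, relations and the ubiquitin list, and the omission of the highest animal or of the dim array of DM14516P3, were chosen after seeing the data. With 1 dim spot per array and 3 chambers per photoperiod, changes under about 1.41-fold between chambers were below what a test would find with a power of 80%.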
